A study of Nicotiana tabacum with 12 samples.

Results

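Aquaporins are the membrane channels of the major intrinsic protein family, and their genes were followed here across the leaf transcriptomes of 4 groups of tobacco (Nicotiana tabacum) seedlings. A gene was counted as an aquaporin where its deposited description, a list of InterPro domain names, contained "major intrinsic protein" or "aquaporin". This rule used no expression value and took 109 of the 69500 genes listed. RNA sequencing was done on 12 leaf libraries in 4 groups of 3. KY and K326 were both labelled wild type, Q18 a knockout and YOE an overexpression line, and no treatment, promoter, clone number or plant age was given in the sources used here beyond the seedling stage. The study asked how NtCISZOG, a gene named for cis-zeatin O-glucosylation of a cytokinin, acts on chlorophyll content. Its design text calls the lines K326-gk-8 and KY-OE-31, so K326 served as reference for Q18 and KY for YOE. The labels themselves give no background for either line.

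Aquaporins let water cross a membrane faster than it passes the lipid, and some also pass glycerol, urea, boric acid, hydrogen peroxide or carbon dioxide. In plants they are a large family whose groups sit mainly in the plasma membrane, the vacuolar membrane or internal membranes, and they are known in leaves for their part in water supply from the veins, in cell expansion and in gas exchange. Tobacco is an allotetraploid, so that many genes are present as copies from both ancestral genomes.

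The descriptions do not place any gene in the plasma membrane, vacuolar or other groups of the family, so each is named by its identifier alone. The conserved family site was listed for 83 of the 109 genes. A further domain of another family was listed for 5, of which 3 carried a protein secretion domain (SecE or Sec61-gamma). None of the 109 identifiers matched the RefSeq table (0 matches), so no sequence or position is printed.

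Deposited values were read as TPM, a share of transcripts corrected for length, so that levels of different genes can be compared. Library totals differed, at 454100 to 494900 in KY, 507100 to 635200 in K326, 608600 to 676900 in Q18 and 334800 to 490000 in YOE. Each library was therefore divided by its median ratio to the average profile of 20130 genes, and a level below is such a scaled TPM unless called deposited. These divisors ran from 0.55 in YOE replicate 2 to 1.61 in Q18 replicate 2. As deposited, the median log2 change of all genes tested was 0.24 for Q18 minus K326, -0.11 for YOE minus KY, 0.39 for K326 minus KY and -0.51 for YOE minus K326. Of 87 genes that were on in K326 and off in KY (at least 2 in each library of one and at most 0.2 in each of the other, as deposited), 82 to 85 were at 1 or more in the YOE libraries and 85 or 86 in the Q18 libraries. Of 13 genes with the opposite pattern, 0 or 1 reached that level in YOE. By these genes the YOE libraries go with K326, against the background that the design text names, so YOE is compared with both wild types. Leaf markers, the small subunit of Rubisco and chlorophyll-binding proteins, summed to between 24300 and 68700 per library, with 3 of 107 genes at 0 in all libraries.

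Most of the leaf's aquaporin transcript came from few genes. In every library the 10 genes with the highest mean level held 68.7 to 74.1% of the sum over all 109. Over the 12 libraries, 4 genes had a mean level of at least 100, 21 of at least 10 and 54 of at least 1. Of the others, 26 were at 0 in every library, and 24 were above 0 somewhere but under 1 in every library. The test was run on genes at 1 or more in at least 3 libraries, which kept 55 of the 109 aquaporins and 30621 genes in all. Of these 55, 44 carried the conserved site.

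**Figure D1:**
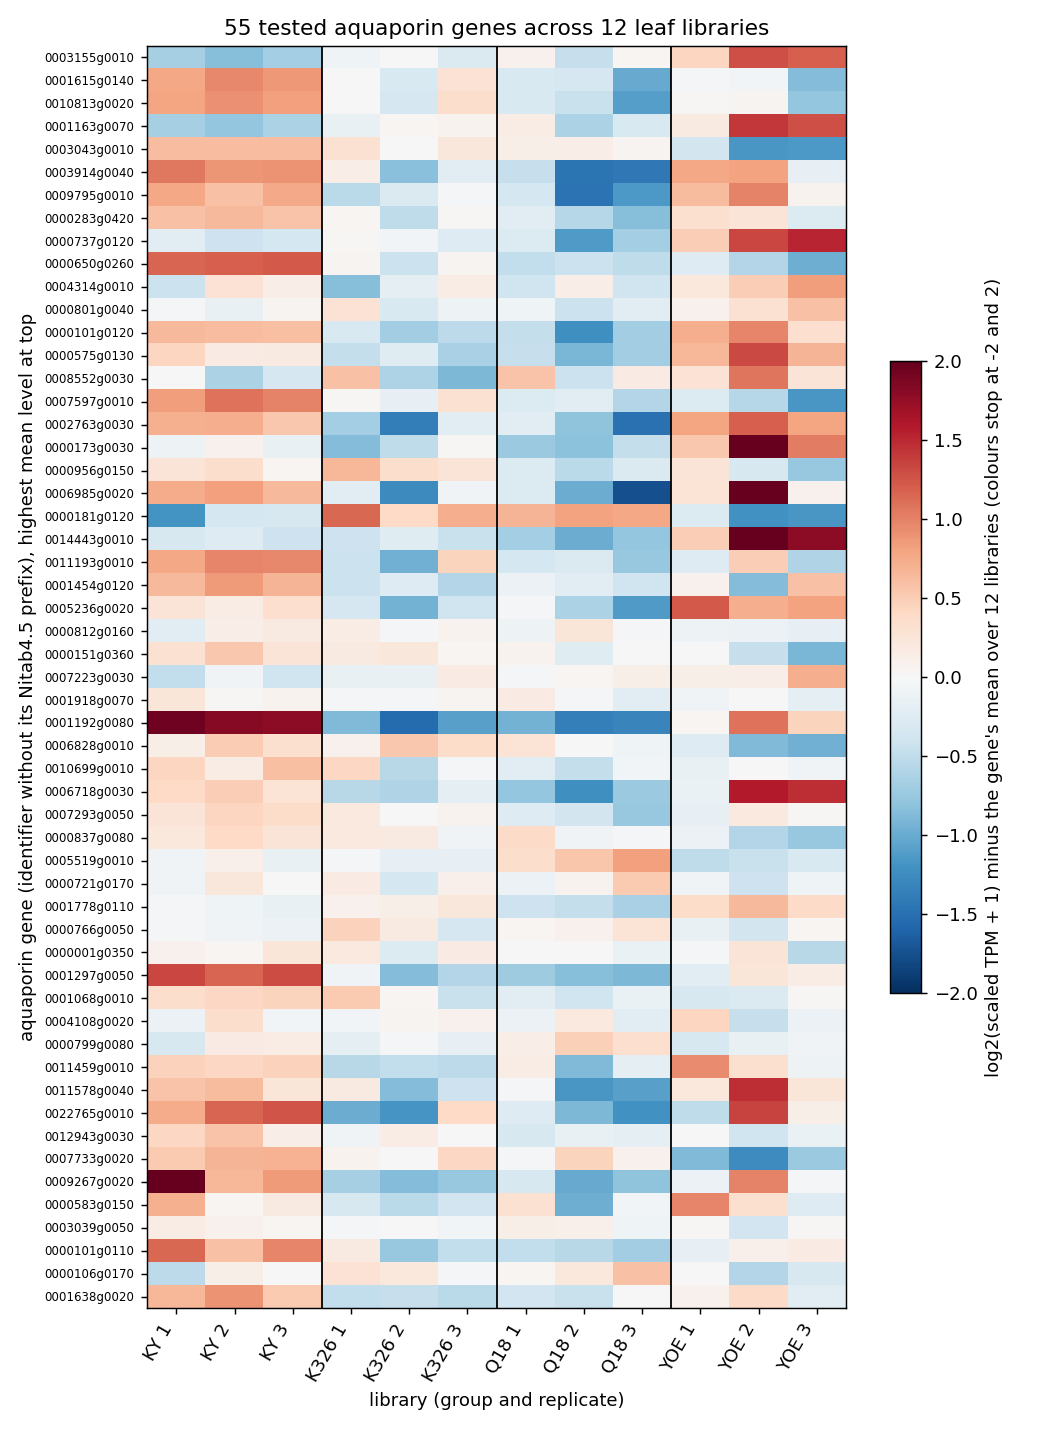
Each of the 55 tested aquaporin genes (rows, highest mean level at the top) in the 12 leaf libraries (columns, by group), as the difference of log2(scaled TPM + 1) from the gene's own mean over the libraries (colour, red above and blue below). Many rows are red in the KY columns and blue in those of K326 and Q18, and the YOE columns hold both colours.

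The summed level of all 109 genes was 1839 ± 24.8 in KY, 1290 ± 125 in K326, 1051 ± 150 in Q18 and 1870 ± 317 in YOE (the ± here and below is the SD over 3 libraries). KY libraries lay between 1816 and 1865 and K326 libraries between 1149 and 1387, with no overlap, while K326 overlapped with Q18 (955 to 1224) and KY with YOE (1609 to 2223). As deposited these sums were 1520 ± 151, 1509 ± 164, 1492 ± 229 and 1370 ± 236, and all 4 groups overlapped. As a share of each library's deposited total, aquaporins made up 0.316 ± 0.0271% in KY, 0.258 ± 0.00393% in K326, 0.228 ± 0.0226% in Q18 and 0.335 ± 0.0303% in YOE. In whole leaves, fewer cells of a type and less RNA per cell cannot be told apart.

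**Figure D2:**
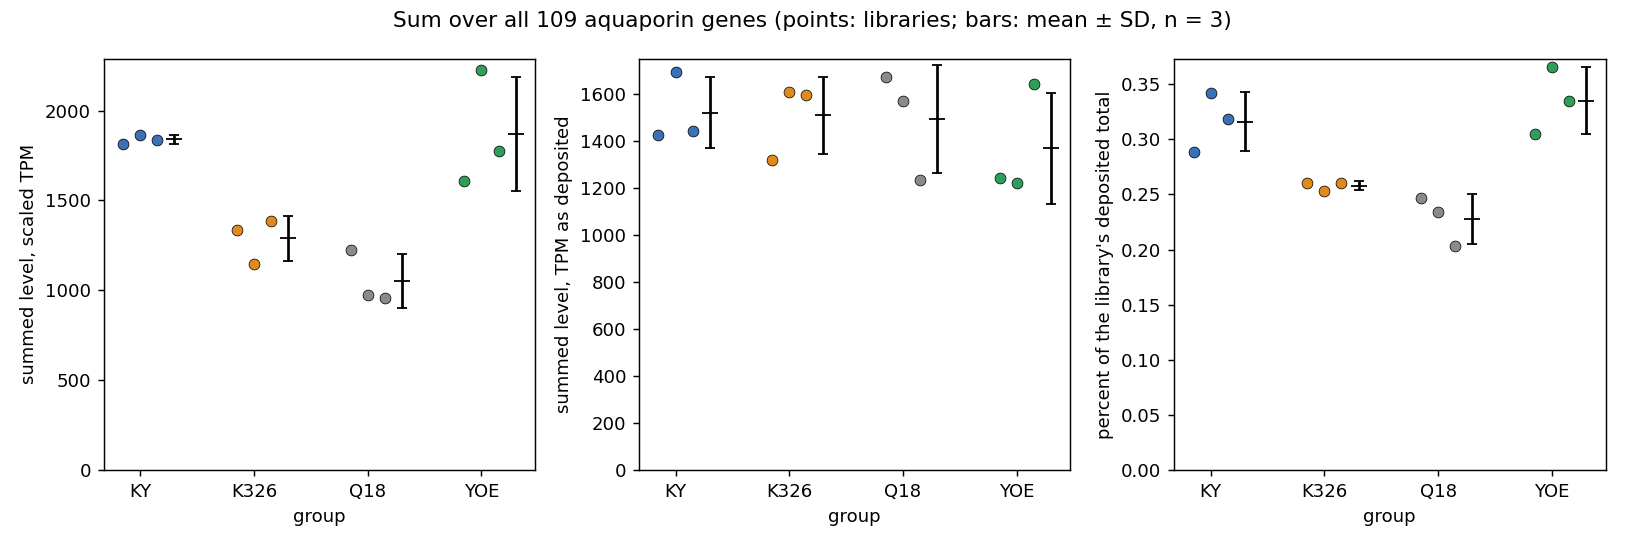
Sum over all 109 aquaporin genes per library, in median-scaled TPM, in deposited TPM and as percent of the library's deposited total, by group (points are libraries, bars the mean ± SD, n = 3). KY and YOE lie above K326 and Q18 after scaling and as percent of the library, whereas the deposited sums of the 4 groups overlap.

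At the top of the ranking stood 2 kinds of gene, those highest in YOE and those highest in KY. Nitab4.5_0003155g0010 had the highest mean level, 200.3 over the 12 libraries. Its levels were 112, 98.7 and 111 in KY, 169, 179 and 146 in K326, 189, 129 and 183 in Q18, and 240, 438 and 409 in YOE. All YOE libraries were above all others, and KY was below the rest. It rose in YOE by a log2 change of 1.70 against KY (SE 0.229, limma adjusted p = 0.000308) and of 1.09 against K326 (adjusted p = 0.0163), a value of 0.42 with adjusted p = 0.163 as deposited.

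Nitab4.5_0001163g0070, the fourth by mean level, was likewise highest in YOE. It was at 75, 69.4 and 76.3 in KY, 107, 122 and 125 in K326, 132, 76.8 and 96.1 in Q18, and 135, 317 and 293 in YOE. The first YOE library stood close to K326 and Q18, and the other two were far above. Its change was 1.65 for YOE minus KY (SE 0.291, limma adjusted p = 0.00155) and 0.97 for YOE minus K326, which missed the threshold at adjusted p = 0.0559. As deposited the YOE minus K326 change was 0.30 (limma adjusted p = 0.376), and YOE overlapped with K326 and Q18. Nitab4.5_0000737g0120 was at 46.8, 40.3 and 42.1 in KY, 54.8, 52.0 and 45.0 in K326, 44.8, 24.2 and 33.4 in Q18, and 77.0, 138 and 157 in YOE. YOE was again the one group above the rest, with log2 changes of 1.45 against KY and 1.22 against K326 (limma adjusted p = 0.00185 and 0.0181). As deposited the second of these was 0.55, with adjusted p = 0.111.

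The genes ranked 2 and 3 by mean level were highest in KY. Nitab4.5_0001615g0140 was at 314, 358 and 334 in KY, 182, 148 and 223 in K326, 148, 145 and 90.3 in Q18, and 181, 176 and 99.6 in YOE. Every KY library was above all 9 others, and YOE overlapped with K326 and Q18. The lowest K326 library (148.1) was barely above the highest Q18 library (147.8), and Q18 minus K326 was not called (limma adjusted p = 0.761). The log2 change was -0.88 for K326 minus KY and -1.18 for YOE minus KY (SE 0.262 for both, limma adjusted p = 0.0313 and 0.00531). As deposited the first of them was -0.37, with adjusted p = 0.277, and the second -1.35, with adjusted p = 0.00182.

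Nitab4.5_0010813g0020 ran in parallel with it, at 251, 274 and 256 in KY, 146, 114 and 186 in K326, 117, 107 and 66.7 in Q18, and 147, 150 and 84.5 in YOE. Its level was 0.736 to 0.857 times that of Nitab4.5_0001615g0140 in each of the 12 libraries, with a median of 0.796, while the level itself ran from 66.7 to 275. The pair was chosen after its values were seen. Its log2 changes were -0.83 for K326 minus KY and -1.07 for YOE minus KY (limma adjusted p = 0.0428 and 0.0103), and the first was -0.33 with adjusted p = 0.336 as deposited. A looser pair, also chosen after its values were seen, was Nitab4.5_0001163g0070 and Nitab4.5_0003155g0010, with ratios of 0.524 to 0.855. Ratios of Nitab4.5_0009795g0010 to Nitab4.5_0003914g0040, a pair picked by hand as well, spread from 0.616 to 1.44.

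Nitab4.5_0000650g0260 was the gene of the 10 with the largest log2 fall from KY, both in K326 and in YOE. It was at 115, 117 and 120 in KY, 52.5, 37.2 and 52.4 in K326, 35.9, 37.2 and 35.3 in Q18, and 42.1, 33.6 and 25.3 in YOE. KY was above every other library, and YOE overlapped with K326 and Q18. It fell in K326 by 1.31 and in YOE by 1.80 on the log2 scale against KY (SE 0.18, limma adjusted p = 0.000574 and 4.95e-05), and both calls held as deposited.

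Nitab4.5_0003043g0010 was at 106, 106 and 105 in KY, 84.4, 68.3 and 80.5 in K326, 74.5, 75.2 and 70.8 in Q18, and 52.5, 29.8 and 30.2 in YOE. Here YOE alone was below all others, and KY alone above. The log2 change was -1.52 for YOE minus KY and -1.08 for YOE minus K326 (SE 0.191, limma adjusted p = 0.000198 and 0.00952). K326 minus KY was -0.44, with adjusted p = 0.108. As deposited this last change was 0.05 (limma adjusted p = 0.881), and KY overlapped with K326 and Q18. Both YOE calls held as deposited.

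The other three of the 10 were lower in K326 than in KY with YOE means in between. Nitab4.5_0003914g0040 was at 123, 110 and 111 in KY, 64.2, 32.6 and 50.4 in K326, 42.5, 20.6 and 21.3 in Q18, and 101, 104 and 52.4 in YOE. Nitab4.5_0009795g0010 was at 99.6, 87.0 and 98.6 in KY, 39.5, 46.9 and 57.0 in K326, 44.9, 20 and 25.4 in Q18, and 89.9, 116 and 60.7 in YOE. Nitab4.5_0000283g0420 was at 93.8, 97.1 and 92.6 in KY, 63.3, 43.0 and 63.1 in K326, 52.8, 41.3 and 33.7 in Q18, and 77.7, 73.8 and 50.8 in YOE. For all 3 the KY and K326 libraries did not overlap, and the third YOE library was the lowest of its group. The K326 minus KY log2 changes were -1.26, -0.99 and -0.75 (limma adjusted p = 0.0199, 0.0288 and 0.0243), and as deposited only the first of these 3 passed, with adjusted p = 0.0405. None of the 3 passed for YOE minus KY, at log2 changes of -0.48, -0.14 and -0.51.

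**Figure D3:**
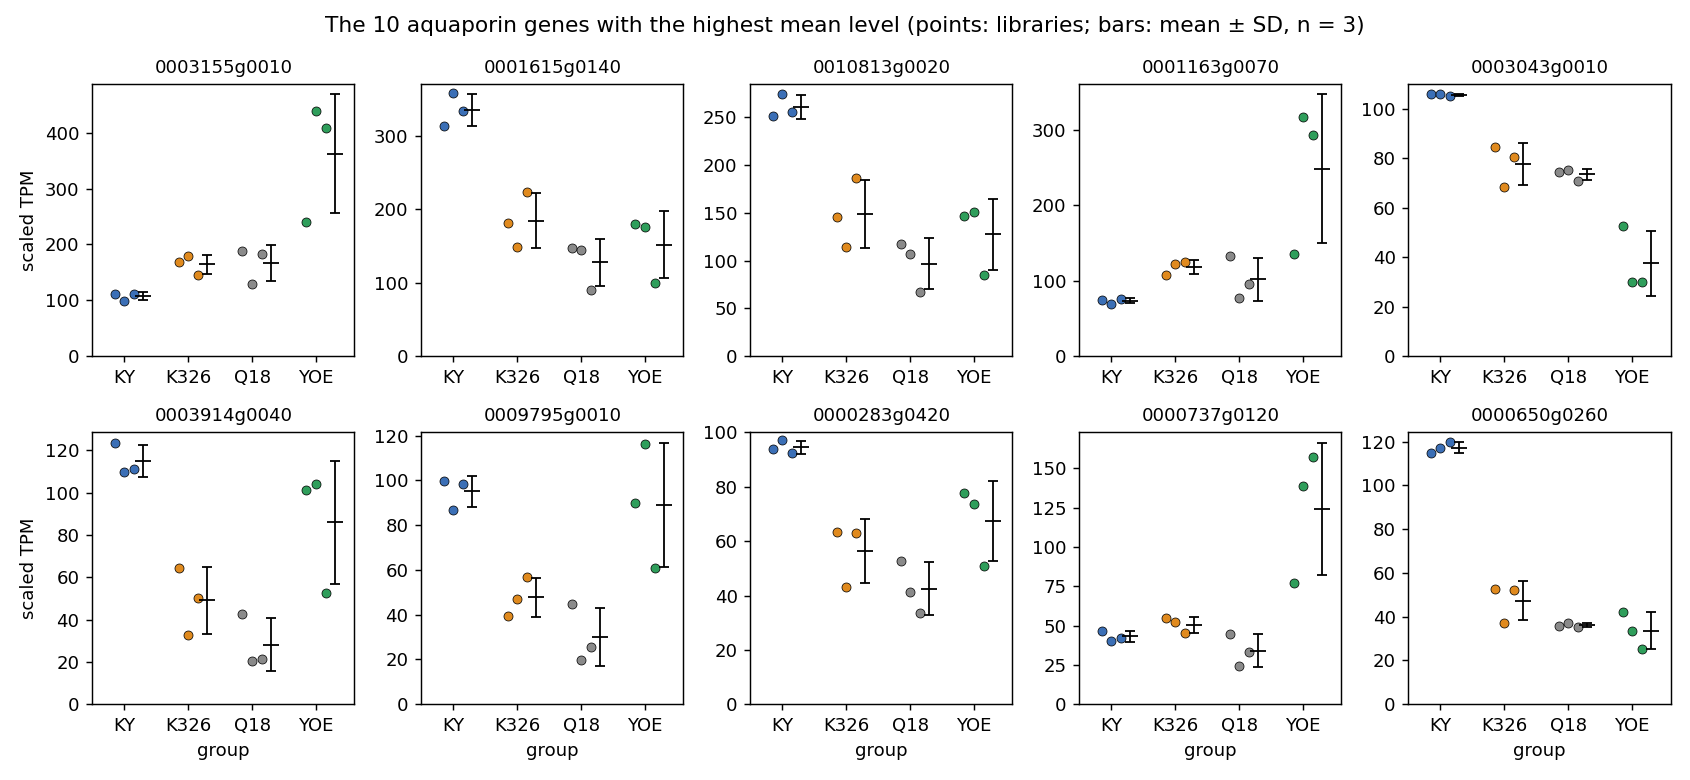
Scaled TPM of the 10 aquaporin genes with the highest mean level, 1 panel per gene and a y axis from 0, by group (points are libraries, bars the mean ± SD, n = 3). In panels Nitab4.5_0003155g0010, Nitab4.5_0001163g0070 and Nitab4.5_0000737g0120 the YOE libraries are highest, and in panels Nitab4.5_0001615g0140, Nitab4.5_0010813g0020 and Nitab4.5_0000650g0260 the KY libraries are.

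Between the wild types, aquaporin genes that differed were nearly all lower in K326. Of the 55 tested, 20 were called lower and 1 higher at a limma adjusted p under 0.05, against 13.3% and 12.2% of all genes tested. The 20 falls ran from -3.02 to -0.71 on the log2 scale. The median change of the 55 was -0.40, beside 0.02 for all genes. As deposited, 9 were called lower and 4 higher, where 2.99% and 24.0% of all genes were, and the median was 0.03 beside 0.39 for all genes. Leaf markers moved beside them, with sums of 46900 to 68700 in KY and 31500 to 48600 in K326, which overlapped, and with 20 of 98 tested called lower and 3 higher at a median of -0.61. As deposited 4 of the leaf markers were lower and 6 higher, and their part in the aquaporin difference was not tested.

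Nitab4.5_0001192g0080 showed the largest fall on the log2(level + 1) scale, with 16.5, 15 and 14.6 in KY against 1.46, 0.557 and 1.14 in K326. It was as low in Q18 (1.35, 0.75 and 0.805) and in between in YOE (3.66, 8.65 and 5.18), with no overlap between YOE and any other group. The K326 minus KY change was -3.02 (SE 0.247, limma adjusted p = 1.27e-05), and YOE differed from both wild types, at -1.32 against KY and 1.70 against K326 (adjusted p = 0.00213 and 0.00538).

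Nitab4.5_0001297g0050 was at 8.96, 7.86 and 8.83 in KY and 2.77, 1.18 and 1.65 in K326. Its Q18 levels were 1.44, 1.19 and 1.13, and its YOE levels 2.40, 3.69 and 3.42. KY stood alone above the other 9 libraries, with changes of -1.77 in K326 and -1.21 in YOE (limma adjusted p = 8.57e-05 and 0.000709). Nitab4.5_0009267g0020 was at 7.36, 2.18 and 2.61 in KY and at 0.263, 0.0999 and 0.182 in K326, a change of -1.96 (adjusted p = 0.00398) and the lower ratio of group means, 0.0449 against 0.0683 for Nitab4.5_0001192g0080. Its KY libraries were spread widely, with the first far above the others.

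Nitab4.5_0022765g0010 was likewise uneven, at 3.06, 4.45 and 4.79 in KY and 0.222, 0.0714 and 2.21 in K326, where 1 library carried most of the group's level. Its change of -1.64 had a limma adjusted p = 0.0318, and 0.0552 as deposited. Nitab4.5_0000101g0110, at 3.15, 1.83 and 2.70 in KY and 1.12, 0.107 and 0.33 in K326, fell by 1.27 on the log2 scale (adjusted p = 0.00272).

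A single aquaporin, Nitab4.5_0000181g0120, was higher in K326, at 21.2, 12.3 and 15.6 against 3.39, 6.91 and 7.06 in KY. Its levels in Q18 (15, 16.5 and 16.2) were within the range of K326, and those in YOE (7.33, 3.34 and 3.47) overlapped with KY. The change was 1.38 for K326 minus KY and -1.64 for YOE minus K326 (SE 0.295, limma adjusted p = 0.00731 and 0.0101). The number of genes called lower in K326 went from 20 to 10, 12 or 11 without KY replicate 1, 2 or 3, and to 11 without K326 replicate 2. Without any single one of the other libraries it was 14 to 22. The count of 1 higher became 3 without YOE replicate 1.

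Against KY, the YOE libraries differed in both directions. Because YOE went with K326 by the on and off genes above, background and overexpression cannot be told apart in this comparison. Of the 55 tested aquaporins, 8 (14.5%) were called higher and 18 (32.7%) lower, where 17.9% and 17.5% of all genes were. The called changes ran from 0.56 to 1.85 and from -1.80 to -0.38. The median over the 55 was -0.23, beside -0.01 for all genes. As deposited 5 were called higher and 16 lower, against 6.76% and 11.5% of all genes.

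The largest rise was that of Nitab4.5_0014443g0010, a gene of low level elsewhere. It was at 5.24, 5.49 and 4.88 in KY, 4.87, 5.56 and 4.74 in K326, 3.85, 2.92 and 3.56 in Q18, and 10.0, 36.3 and 26.0 in YOE. Every YOE library was above the other 9, and the YOE libraries differed more from each other than any other group's did. The log2 change was 1.85 against KY and 1.88 against K326 (SE 0.334, limma adjusted p = 0.0018 and 0.0097), and both calls held as deposited. Nitab4.5_0000173g0030 was at 12.1, 13.8 and 11.7 in KY and 19.3, 55.2 and 27.7 in YOE. K326 (6.67, 8.85 and 13.3) and Q18 (7.39, 6.93 and 9.04) were lower than YOE too, and YOE rose by 1.24 against KY and 1.64 against K326 (limma adjusted p = 0.012 and 0.013).

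Smaller rises were those of Nitab4.5_0000575g0130, Nitab4.5_0007223g0030 and Nitab4.5_0001778g0110, at 0.63, 0.65 and 0.56 on the log2 scale (limma adjusted p = 0.0258, 0.0154 and 0.00292). As deposited their adjusted p were 0.162, 0.254 and 0.212, so these 3 calls rest on the scaling. Nitab4.5_0000575g0130 was at 30.5, 25.0 and 25.3 in KY, 15.8, 18.7 and 13.8 in K326, 15.9, 11.3 and 13.4 in Q18, and 35.9, 57.1 and 36.4 in YOE. YOE stood above KY, and KY above K326 and Q18. Against K326 its change was 1.34 (SE 0.194, limma adjusted p = 0.00499), a call that held as deposited.

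Among the 18 falls, Nitab4.5_0007597g0010 went from 34.5, 41.5 and 38.8 in KY to 15.4, 12.4 and 7.93 in YOE, with 19.3, 16.8 and 23.5 in K326 and 15.5, 16.0 and 12.3 in Q18. Its change was -1.64 for YOE minus KY (SE 0.209, limma adjusted p = 0.000215), -0.92 for K326 minus KY (adjusted p = 0.00924) and -0.72 for YOE minus K326, just inside the threshold at adjusted p = 0.0495. KY was above all other libraries, and YOE overlapped with Q18. Nitab4.5_0007733g0020 was low throughout, at 2.44, 2.82 and 2.85 in KY, 1.5, 1.4 and 2.16 in K326, 1.32, 2.24 and 1.54 in Q18, and 0.297, 0 and 0.433 in YOE. All YOE libraries were under every other library, and the change was -1.59 against KY and -1.12 against K326 (SE 0.172, limma adjusted p = 8.05e-05 and 0.00631).

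**Figure D4:**
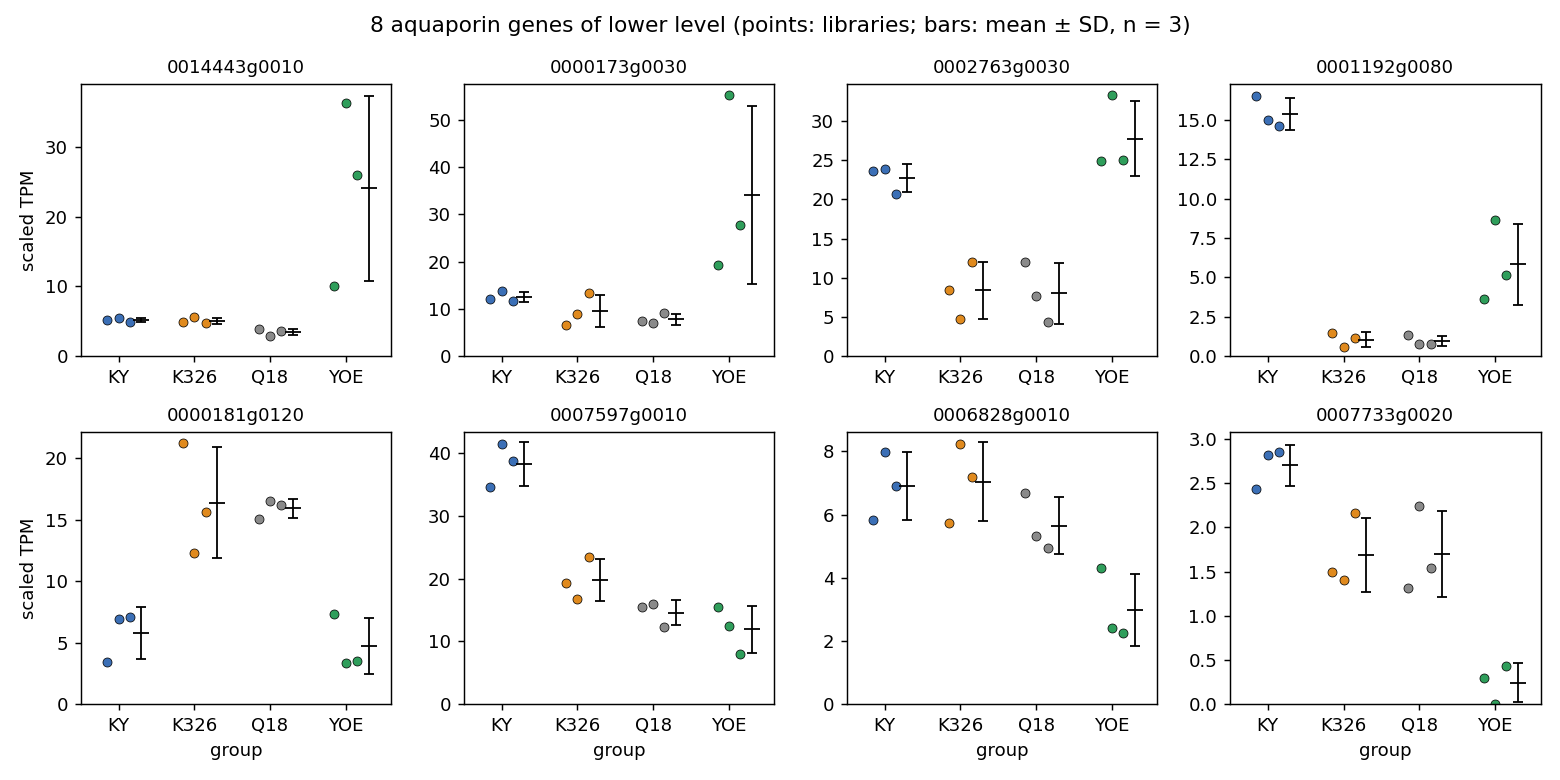
Scaled TPM of 8 aquaporin genes of lower level that are named in the text, 1 panel per gene and a y axis from 0, by group (points are libraries, bars the mean ± SD, n = 3). By mean, YOE is highest in panels Nitab4.5_0014443g0010 and Nitab4.5_0000173g0030 and lowest in panels Nitab4.5_0007597g0010, Nitab4.5_0006828g0010 and Nitab4.5_0007733g0020, and K326 and Q18 are highest in panel Nitab4.5_0000181g0120.

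Set against K326, YOE had 10 aquaporins called higher and 5 lower of 55, where 5.71% and 4.74% of all genes were. The called rises ran from 1.09 to 1.88 and the called falls from -1.64 to -0.72. The median was 0.32, beside -0.02 for all genes. As deposited 7 were called higher and 22 lower, against 1.89% and 36.9% of all genes, and the median was -0.30 beside -0.51.

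Nitab4.5_0002763g0030 was at 24.9, 33.3 and 25.1 in YOE against 8.40, 4.77 and 12.0 in K326, with 23.6, 23.9 and 20.7 in KY and 12.0, 7.61 and 4.35 in Q18. KY and YOE were high and K326 and Q18 low, with a YOE minus K326 change of 1.68 and a K326 minus KY change of -1.41 (SE 0.326, limma adjusted p = 0.0126 and 0.0104). Nitab4.5_0005236g0020 had the same split, at 19.9, 13.8 and 14.7 in YOE, 9.73, 8.98 and 10.3 in KY, 6.09, 3.67 and 5.78 in K326 and 7.76, 4.76 and 3.07 in Q18. It rose by 1.48 against K326 (limma adjusted p = 0.00929).

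Nitab4.5_0006718g0030 was at 3.65, 14.2 and 13.1 in YOE and at 2.46, 2.34 and 3.47 in K326, with 5.74, 6.16 and 5.18 in KY and 1.98, 1.17 and 2.03 in Q18, so that the first YOE library lay just above the K326 range. Its change of 1.42 had a limma adjusted p = 0.0337, and 0.0537 as deposited. Nitab4.5_0000101g0120, neighbour in number to a low gene named above, was at 55.5, 66.4 and 42.4 in YOE, 52.9, 51.6 and 51.2 in KY, 26.6, 20.2 and 22.8 in K326, and 23.7, 13.7 and 20.2 in Q18. YOE overlapped with KY, and both lay above the other groups. It rose by 1.19 against K326 (adjusted p = 0.00874).

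Lower in YOE than in both wild types was Nitab4.5_0006828g0010, at 4.29, 2.42 and 2.24 against 5.72, 8.22 and 7.17 in K326 and 5.84, 7.98 and 6.90 in KY. Its changes were -1.04 and -1.02 (SE 0.2, limma adjusted p = 0.0121 and 0.00279). With the 6 YOE and K326 libraries fitted alone, limma called 0 aquaporins, beside 0.33% of all genes, although 30 of 55 had an unadjusted p under 0.05, beside 20.9%, so none of the 15 calls was made from those libraries alone. Without YOE replicate 2 the count of lower genes was 3, and without YOE replicate 1 it was 9.

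Between the knockout and K326 no aquaporin passed the threshold. Limma called 0 of 55, and 0% of all 30621 genes. At an unadjusted p under 0.05 there were 9 aquaporins, 2 higher and 7 lower, or 16.4% of those tested beside 6.78% of all genes. The changes ran from -0.81 to 0.69 with a median of -0.20, beside 0.02 for all genes, and 39 of 55 were below 0, where 46.2% of all genes were. As deposited 0 were called, beside 0.0192% of all genes, and 5 of 55 had an unadjusted p under 0.05, beside 8.12%. On that scale 22 of 55 (40%) were below 0, where 15.3% of all genes were, and the median was 0.07 beside 0.24 for all genes.

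Of these genes, 4 were picked after their values were seen. Nitab4.5_0003914g0040, given above, had the lowest change, -0.81, with an SE of 0.336 and overlapping groups (limma adjusted p = 0.706). Nitab4.5_0000956g0150 followed, at 11.1, 9.00 and 11.0 in Q18 and 22.2, 17.7 and 16.4 in K326. These groups did not overlap, and the change was -0.80 (SE 0.221, limma adjusted p = 0.408). Nitab4.5_0001778g0110, with the smallest adjusted p of the 4, was at 2.89, 2.75 and 2.31 in Q18 and 4.51, 4.65 and 5.05 in K326. Its groups did not overlap, and the change was -0.65 (SE 0.11, limma adjusted p = 0.144). Nitab4.5_0005519g0010, at 5.77, 6.78 and 8.40 in Q18 and 4.19, 3.77 and 3.75 in K326, had the highest change, 0.69 (SE 0.131, adjusted p = 0.214). The median SE over the 55 genes was 0.214.

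**Figure D5:**
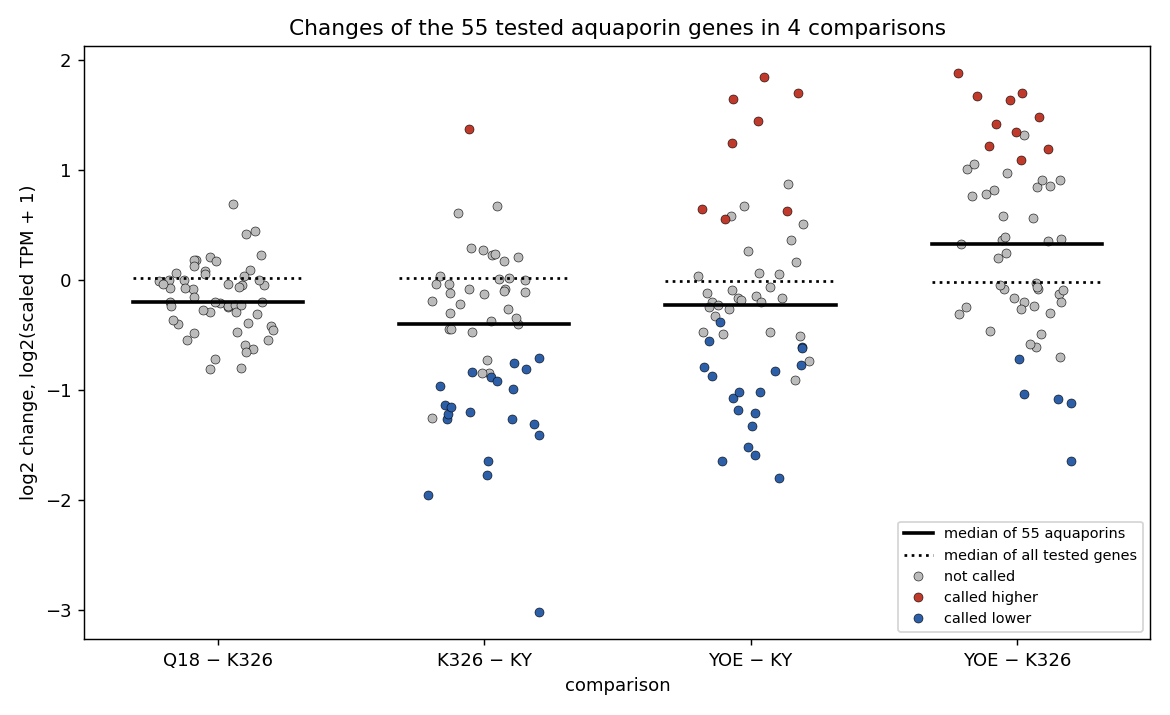
Log2 change of each of the 55 tested aquaporin genes in the 4 comparisons, on the log2(scaled TPM + 1) scale, with called genes marked by colour. Called genes lie mostly below 0 for K326 minus KY (20 of 21), on both sides for the YOE comparisons, and there are none for Q18 minus K326.

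The groups differed in how far their libraries spread. The median SD over the 55 genes was 0.108 in KY, 0.229 in K326, 0.235 in Q18 and 0.389 in YOE on the log2 scale. In YOE, replicate 2 was the highest of the 3 for 25 genes, replicate 1 for 19 and replicate 3 for 11.

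Of the 54 aquaporins not tested, 4 reached 1 or more in some library. Nitab4.5_0009795g0020 was at 0.75, 4.91 and 3.66 in YOE and at 0.20 to 0.688 in both wild types. Nitab4.5_0001076g0030 was at 0.504, 2.60 and 1.96 in YOE and at most 0.394 in the wild types, and Nitab4.5_0000618g0070 at 0.802, 1.58 and 2.60 in YOE and at most 0.313. For these 3 genes all YOE libraries were above all wild-type libraries, and in Q18 they were at most 0.476, 0.24 and 0.205. They were listed for reaching 1, which they did only in YOE replicates 2 and 3. Their higher level in YOE thus follows in part from that choice and was not tested. The last, Nitab4.5_0008572g0060, was at 0.776, 1.15 and 0.844 in YOE and overlapped with K326, at 1.05, 0.343 and 0.556.

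Some family members share the first number of their identifier, taken here as a scaffold. There are 101 such scaffolds, of which 7 hold more than 1 aquaporin and 15 in all, and 7 pairs have neighbouring gene numbers. In 2 of these pairs both genes were at 0 in every library, and the others differed in level. Nitab4.5_0008552g0030 had a mean of 23.8, while the genes numbered just before and after it on the scaffold were at 0 in every library. Nitab4.5_0009795g0010 had a mean of 65.5 and its neighbour Nitab4.5_0009795g0020 of 1.05, and Nitab4.5_0000101g0120 had 37.3 against 1.07 for Nitab4.5_0000101g0110. Reads that fit several copies may have been divided between them, by a rule that the sources used here do not give.

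Other membrane transport genes were read from the same descriptions. Plasma membrane proton pumps, which energise uptake across that membrane, had 4 genes, 2 of them tested, and both fell against KY in K326 and in YOE. Nitab4.5_0000055g0200 was at 104 ± 6.91 in KY and 55 ± 3.31 in K326, a log2 change of -0.90 (limma adjusted p = 0.00421). As deposited 0 of the 2 passed for K326 minus KY and 1 for YOE minus KY. Boron and bicarbonate transporters, whose boron members move a solute that some aquaporins also pass, had 7 of 13 genes tested. Of those, 3 fell in K326 and 4 in YOE against KY and 0 rose, with 2 and 3 falling as deposited. Nitab4.5_0000671g0200 was at 33.8 ± 2.41 in KY, 10.5 ± 2.17 in K326 and 7.25 ± 2.15 in YOE.

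The list of vacuolar proton pumps, which shares descriptions with ATP synthase subunits, had 86 of 115 genes tested. It had 29 higher and 4 lower for YOE minus KY, 15 and 6 for K326 minus KY, and 5 and 1 for YOE minus K326. As deposited, with 87 tested, these became 6 and 5, 31 and 2, and 1 and 35. The direction for YOE minus K326 thus turns with the scale, and most calls among all genes were then lower too. Potassium channels and transporters had 59 of 117 tested, with 14 higher and 12 lower for YOE minus KY, 8 and 4 for K326 minus KY, and 2 and 7 for YOE minus K326. As deposited, with 61 tested, these were 3 and 8, 15 and 0, and 0 and 24. Mechanosensitive channels (17 of 22 tested) had, in the same order, 4 and 4, 3 and 5, and 3 and 0, and as deposited 2 and 4, 4 and 0, and 0 and 5. Cation exchangers (26 of 70 tested) had 2 and 9, 2 and 4, and 0 and 2. As deposited, with 27 tested, they had 0 and 2, 3 and 1, and 0 and 11. The shares of all genes called higher and lower were 17.9% and 17.5% for YOE minus KY, 12.2% and 13.3% for K326 minus KY, and 5.71% and 4.74% for YOE minus K326. As deposited these shares were 6.76% and 11.5%, 24.0% and 2.99%, and 1.89% and 36.9%. For Q18 minus K326 these 6 lists had 0 called genes.

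Markers of other tissues were measured beside these results. Phloem genes, mostly phloem protein 2-like, had 60 members, 2 of them at 0 in all libraries. They summed to 491 to 593 in KY, 344 to 392 in K326, 439 to 562 in Q18 and 640 to 1430 in YOE, above all other groups in YOE. Of the 38 tested, 14 were called higher and 3 lower for YOE minus KY, and 14 and 1 for YOE minus K326. As deposited, with 36 tested, these were 8 and 2, and 9 and 9. Genes with a pollen allergen or Ole e 1 description, which include cell wall expansins, had 165 members with 58 at 0, and summed to 1190 to 1320 in YOE and 587 to 963 elsewhere. Of the 49 tested, 19 were called higher and 5 lower for YOE minus KY, and 15 and 1 for YOE minus K326. As deposited, with 50 tested, these were 9 and 5, and 10 and 10. Root markers were represented by nicotianamine synthase alone, 4 genes that summed to 5.33 to 11.1 in KY, 14.3 to 18.8 in K326, 17.5 to 40 in Q18 and 4.11 to 18.3 in YOE. Laccase and COBRA genes of xylem and cell wall, 15 of 79 at 0 in all libraries, summed to 72.5 to 77.6 in KY, 90.6 to 114 in K326, 96.5 to 126 in Q18 and 123 to 155 in YOE. Of the 8 tested, 4 were called higher and 3 lower both in K326 and in YOE against KY, and as deposited 4 and 0 in K326 and 4 and 3 in YOE. Root and xylem sums of KY and K326 did not overlap and were higher in K326, though 0 of the 2 root genes tested were called. Phloem sums of KY and K326 did not overlap either, and were lower in K326. The guard cell pattern matched 0 genes. The part of other tissues in the aquaporin differences was not tested.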

How the data were processed

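RNA was sequenced from seedling leaves in 4 groups of 3 libraries, grouped by the labels. Salmon and StringTie were used, per the submitters' processing notes, which name no versions. Aligner settings and build are not given in the sources used here, other than by the identifier prefix Nitab4.5. The authors deposited 1 table of 69500 genes whose values were taken as TPM, although no unit stands in the header and FPKM cannot be told apart. TPM keeps no depth, so the depth per library and its precision are unknown, and columns summed to 334759 to 676862. Whether replicates are separate plants is not in the labels. The p-values therefore cover the spread between these samples alone, which may be technical. No pair of libraries was identical.

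Each library was divided by its median ratio to the geometric mean profile of the 20130 genes that reached 1 in every library. Genes at 1 or more in at least 3 libraries were kept (30621; 31311 as deposited), and limma 3.58.1 (R 4.3.3, trend and robust) fitted 4 group means to log2(value + 1) of the 12 libraries, with Benjamini-Hochberg adjustment over all genes tested and a threshold of 0.05. Log2 changes on this scale understate the change of low genes. All 4 comparisons have libraries in common. The script was tested on simulated data. The members, the lists (matched by patterns to the descriptions) and the tests were chosen with earlier results of these data known. Named were the 10 aquaporins of highest mean level, up to 8 called genes per direction and comparison whose groups did not overlap and whose higher group had a mean of at least 1, and any gene at 0.2 or less in 1 group and 2 or more in another (0 found), and of other lists up to 2 genes per comparison. Other aquaporins given with values were chosen after these were seen.

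Alternatives were the values as deposited, quantile normalization, scaling to the column sum, other filters (none, or a mean of 5 or more), 0.1 as pseudocount, fits of only the 6 libraries compared, calls that also need a 2-fold change, a replicate block and each library left out. Leaving out genes with a domain of another family was added after seeing the data. Figures were drawn with Python 3.11.15 and matplotlib 3.10.9.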

Additional observations from a re-analysis of the deposited data

How the results depend on the processing

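Called aquaporins lower in K326 than in KY numbered 20, and 9 as deposited and 12 with a fold of at least 2, with 10 to 22 when single libraries were left out. Those higher numbered 1, and 4 as deposited or scaled to the column sum, 2 after quantile normalization and 3 with the 6 libraries alone, with 1 to 3 when single libraries were left out. For YOE minus KY, 8 were higher, and 5 as deposited or with a fold of at least 2 (6 to 9 with single libraries left out), and 18 lower, and 10 with a mean of at least 5 or a fold of at least 2 (12 to 17). For YOE minus K326, 10 were higher, and 0 with the 6 libraries alone (7 to 12), and 5 lower, and 22 as deposited, 8 scaled to the column sum and 0 with the 6 libraries alone (3 to 9). Why these counts moved was not tested. For Q18 minus K326 the count was 0 under every alternative run.

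With the replicate number as a block, the counts of higher and lower genes were 1 and 19 for K326 minus KY, 9 and 14 for YOE minus KY, 11 and 6 for YOE minus K326 and 0 and 0 for Q18 minus K326. Same-numbered libraries correlated at -0.219 to 0.34 in their deviations from the group means. With 3 libraries per group these values cannot tell whether the numbers pair the libraries. Of 43 named changes 2 lost their call under the block, 11 as deposited and 16 with the 6 libraries alone, and none of the 43 changed sign under any alternative run. Depth is unknown, so its limit on genes of low level cannot be given.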
